A study of Mus musculus with 10 samples.

Results

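Messenger RNA of 41 genes of the hypoxia response and of glycolysis was followed in cultured mouse tumour cells that differed in syndecan-1. The 41 genes were taken by symbol from a table of 60676 genes and loci, through the Ensembl identifier of each row, and all 41 were found. They were set out in 4 roles: 6 HIF regulators, 12 HIF targets, 4 sugar and lactate transporters and 19 glycolytic enzymes. Each value below is a count of reads from 1 library, given as counts per 1000000 counts of that library (CPM), unless another scale is named.

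The cells were MC38, a mouse colon adenocarcinoma line, and B16, a mouse melanoma line. Every culture carried a knockdown of Sdc1, the gene of the heparan sulfate proteoglycan syndecan-1, and every culture had received interferon gamma at 10 ng/ml for 24 h. The 5 groups were MC38 with the knockdown alone, MC38 with the knockdown and a mutant labelled c30, MC38 with the knockdown and a mutant labelled ect, B16 with the knockdown alone, and B16 with the knockdown and wild-type Sdc1, each with 2 libraries. The sources used here do not say what c30 and ect change in the protein, and no culture without the knockdown or without interferon gamma was analysed here. Whether paired libraries of 1 group started from separate cultures is not in the labels, and each p-value therefore measures only a spread between libraries that may be technical.

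HIF is a transcription factor made of an alpha subunit, encoded by Hif1a or Epas1, and a stable partner. When oxygen is present the prolyl hydroxylases encoded by Egln1, Egln2 and Egln3 modify the alpha subunit, the VHL protein then marks it for destruction, and much of its control thus lies after transcription. When oxygen is scarce HIF raises genes for vessel growth, mitophagy, collagen modification and lactate production, and the genes of most steps of glycolysis are among its known targets. Tumour cells often keep glycolysis high even with oxygen present.

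Depth and labels were checked first. Library totals ran from 11349447 to 15041133, so that 3 counts, taken as the limit that a count of 0 allows, came to between 0.199 and 0.264 CPM. Sdc1 stood at 24.5 and 29.99 CPM in the MC38 knockdown libraries, at 97.0 and 99.5 CPM with c30, and at 22.4 and 25.2 CPM in the libraries labelled ect. Sdc1 reads were thus higher with c30 (log2 fold change 1.86, SE 0.087, edgeR adjusted p = 6.18e-31), while ect and the knockdown overlapped (log2 -0.18, SE 0.10, edgeR adjusted p = 0.325). In B16 the Sdc1 level was 40.7 and 43.1 CPM in the knockdown and 71.1 and 56.9 CPM with wild-type Sdc1 (edgeR adjusted p = 0.269), and a row of the table does not tell the cell's own transcript from an introduced one. The 8 melanocyte markers summed to 6.33 to 12.9 CPM in MC38 and to 13692 to 14506 CPM in B16. Most epithelial markers were near 0 in MC38, although the line is labelled an adenocarcinoma: Epcam was at 0.151 to 0.527 CPM, Krt8 at 0.997 to 1.94 CPM and Cldn4 at 0 to 0.151 CPM, while Cdh1 was at 5.53 to 13.9 CPM. Leukocyte markers summed to at most 4.43 CPM in any library. For the genes described here, B16 wild-type replicate 2 stood apart from replicate 1: it was lower in 17 of 19 enzymes, with a median log2 ratio of -0.24 where the median over 14336 genes was -0.01. The B16 knockdown replicates differed too: replicate 2 was lower in 3 of 19 enzymes, and the HIF targets had a median log2 ratio of 0.21 against 0.02 over all genes.

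Promoter sequences are shown first, because the HIF targets have in common a short binding word, and they serve to show what the genes that moved do and do not share. RefSeq windows on build GRCm38.p6, from 250 bases before to 50 bases after the transcript start, were found for 37 of the 41 genes. Bnip3l, Slc2a3, Ndrg1 and Epas1 had none. The word searched was ACGTG, the core to which HIF is known to bind, or its variant with G as the first base, on either strand. Overlapping matches are merged into 1, as in the palindromic E-box, which is also the word of other factors such as MYC. Capitals below mark the matches. The windows belong to 3 HIF targets, 1 regulator and 2 enzymes that were lower in MC38 with both mutants, and the last has no match:
Pdk1 promoter, chr2:71872974-71873273, plus strand: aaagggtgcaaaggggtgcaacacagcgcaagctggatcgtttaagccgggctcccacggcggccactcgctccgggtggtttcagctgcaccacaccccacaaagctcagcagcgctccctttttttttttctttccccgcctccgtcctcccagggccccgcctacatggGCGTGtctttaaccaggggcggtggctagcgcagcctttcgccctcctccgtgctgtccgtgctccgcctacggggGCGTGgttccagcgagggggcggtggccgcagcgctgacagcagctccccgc
Bnip3 promoter, chr7:138909457-138909756, minus strand: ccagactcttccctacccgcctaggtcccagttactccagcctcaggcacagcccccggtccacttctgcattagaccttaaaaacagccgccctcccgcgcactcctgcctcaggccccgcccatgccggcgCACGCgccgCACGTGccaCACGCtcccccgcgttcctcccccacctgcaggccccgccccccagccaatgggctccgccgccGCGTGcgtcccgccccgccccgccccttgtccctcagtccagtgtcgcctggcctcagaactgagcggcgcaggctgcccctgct
P4ha1 promoter, chr10:59323046-59323345, plus strand: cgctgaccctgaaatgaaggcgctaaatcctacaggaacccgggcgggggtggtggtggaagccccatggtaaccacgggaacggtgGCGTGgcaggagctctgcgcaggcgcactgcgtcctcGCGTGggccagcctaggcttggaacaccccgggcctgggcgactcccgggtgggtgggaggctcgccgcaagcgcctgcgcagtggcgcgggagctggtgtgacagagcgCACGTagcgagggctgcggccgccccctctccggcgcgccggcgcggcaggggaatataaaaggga
Egln3 promoter, chr12:54203825-54204124, minus strand: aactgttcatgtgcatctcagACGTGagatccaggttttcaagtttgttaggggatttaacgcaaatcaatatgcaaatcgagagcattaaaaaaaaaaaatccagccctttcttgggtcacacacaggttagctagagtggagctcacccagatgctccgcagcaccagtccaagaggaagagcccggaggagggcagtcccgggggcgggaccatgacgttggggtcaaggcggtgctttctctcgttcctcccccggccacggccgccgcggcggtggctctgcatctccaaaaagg
Ldha promoter, chr7:46845554-46845853, plus strand: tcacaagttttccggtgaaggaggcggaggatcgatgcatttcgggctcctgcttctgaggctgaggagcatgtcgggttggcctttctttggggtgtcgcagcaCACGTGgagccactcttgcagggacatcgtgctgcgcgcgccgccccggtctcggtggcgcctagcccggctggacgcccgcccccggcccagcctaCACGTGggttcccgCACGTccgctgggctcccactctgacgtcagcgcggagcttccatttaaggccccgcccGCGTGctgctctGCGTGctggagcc
Gpi1 promoter, chr7:34230287-34230586, minus strand: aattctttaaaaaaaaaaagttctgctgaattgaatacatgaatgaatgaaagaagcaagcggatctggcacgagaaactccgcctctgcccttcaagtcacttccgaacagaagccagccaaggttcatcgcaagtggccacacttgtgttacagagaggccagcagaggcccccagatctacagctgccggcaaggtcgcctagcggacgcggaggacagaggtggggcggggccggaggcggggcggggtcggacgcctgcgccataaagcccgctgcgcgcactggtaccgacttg
The Pdk1 window held 2 matches, that of Bnip3 4, that of P4ha1 3, that of Egln3 1 and that of Ldha 5. Where a gene had several windows, the one with most matches is shown. A second window of Pdk1 held 0 matches and a second window of Ldha held 2. At least 1 window with the word was present for 32 of 37 members (86.5%), against 12628 of 27025 genes in the RefSeq table (46.7%). The members' windows were also richer in G and C, with a median of 61.7% against 52.7%, and held a median of 20 CpG against 7, which raises the share with any word of this make-up. Among members called lower in MC38 with a mutant, 15 of 17 genes had the word (88.2%), and among the other members 17 of 20 (85%), so the word did not set apart the members that moved. A match is a run of letters and not a measured site, and the absence of one in Gpi1 says only that these letters are not in this window.

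With c30 in MC38, HIF targets and several glycolytic enzymes were lower than in the knockdown alone, and no member was called higher. Ndrg1, Bnip3 and Egln3 were 1.5-fold to 1.61-fold lower, Pdk1 fell by 24.6%, and the enzymes that passed fell by 7.52% to 13.5%. Of 36 members with enough counts to be tested, 12 were called lower and 0 higher at an edgeR adjusted p under 0.05, where 4.45% of 15031 genes were called lower, 3.3% higher and 7.75% in either direction. Among genes of at least 5 CPM in 2 libraries, 12 of 33 members were lower against 6.25% of genes. That limit removes genes of low counts but does not match genes to the members by abundance. The members were chosen with earlier results of these data known, so these shares and those for ect are descriptive. The median log2 fold change was -0.17 over the 36 members and 0.00 over all genes tested. Adm, Car12, Epas1, Ldhb and Slc2a3 had too few counts in MC38 to be tested.

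Between the libraries labelled ect and the same knockdown libraries, 18 of 36 members were called lower and 0 higher. Sdc1 counts do not show that the ect form was expressed, so each value below compares libraries by their labels. The background was 4.61% of 15031 genes called lower, 3.55% called higher and 8.16% called in either direction. Among genes of at least 5 CPM the count was 18 of 33 members against 6.57% of genes, and the median over the 36 members was -0.20. DESeq2 did not call Egln3, Bnip3, Bnip3l and Pfkl with c30, nor Hif1a, Egln3, Slc16a3, Hk1 and Pfkp with ect. In a fit of all 10 libraries only Ndrg1, Pdk1 and Vegfa remained with c30, and those 3 with Bnip3, Kdm3a and P4ha1 with ect. Both mutants were compared with the same 2 knockdown libraries, so agreement between them is partly built in, and their values are only set side by side. In RNA from whole cultures a lower level in every cell cannot be told apart from fewer cells at a high level.

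Stromal markers moved along with these results. The 7 markers summed to 718 and 743 CPM in the MC38 knockdown libraries and to 467 to 477 CPM in the 4 libraries with c30 or ect. In every MC38 library 6 of the 7 were at or above 1 CPM, the sum was mostly Col3a1 and Col1a2, and Lum was at 0 to 0.133 CPM. The 7 epithelial markers summed to 16.4 CPM in each knockdown library and to 8.96 to 12.7 CPM in the mutants. Most of that sum was Cdh1, at 13.7 and 13.9 CPM in the knockdown and 5.53 to 9.25 CPM in the mutants. Krt19 went the other way, at 0.653 and 0.527 CPM in the knockdown and 0.783 to 0.931 CPM in the mutants. Krt8 was above the knockdown in every mutant library except ect replicate 2. The part of these differences in the hypoxia and glycolysis results was not tested.

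The regulators came first in the order of the pathway. Hif1a, the main oxygen-sensitive subunit, was at 130 and 141 CPM in the MC38 knockdown, 120 and 123 CPM with c30 and 111 and 123 CPM with ect. Neither mutant overlapped the knockdown, and the difference was called with ect (log2 fold change -0.20, SE 0.057, edgeR adjusted p = 0.0166) but not with c30 (-0.15, SE 0.058, adjusted p = 0.1). With c30 it was called once knockdown replicate 1 was left out. The ect call ended without MC38 knockdown replicate 2 or without ect replicate 1. Epas1, which encodes the HIF-2 alpha subunit, was at or below 0.176 CPM in all 6 MC38 libraries, that is at 0 to 2 counts.

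The hydroxylases that mark HIF for destruction are partly HIF targets themselves. Egln3 was at 8.64 and 9.12 CPM in the knockdown, 4.23 and 6.70 CPM with c30 and 4.30 and 6.71 CPM with ect. It was called lower with c30 (log2 change -0.69, SE 0.219, edgeR adjusted p = 0.0345) and with ect (-0.65, SE 0.214, adjusted p = 0.0411), and both calls ended when any 1 of knockdown replicate 1, knockdown replicate 2 or replicate 1 of the mutant was left out, and under limma-voom. The mutant replicates lay far apart, though all below the knockdown. Egln1, the main oxygen sensor, was at 66.7 and 71.7 CPM in the knockdown, 58.7 and 60.9 CPM with c30 and 50.2 and 58.0 CPM with ect. Its call with ect (-0.34, SE 0.075, adjusted p = 0.000917) ended without ect replicate 1, and with c30 it missed the threshold (-0.21, SE 0.075, adjusted p = 0.0775). Egln2 and Vhl were called with neither mutant. Of the 5 regulators tested, 1 was called lower with c30 and 3 with ect.

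HIF targets moved furthest, with 6 of 10 tested called lower with c30 and 7 of 10 with ect, at medians of -0.35 and -0.38 on the log2 scale. All 10 estimates were below 0 in both comparisons. Ndrg1, a stress gene long used as a hypoxia marker, was at 125 and 121 CPM in the knockdown, 77.4 and 85.8 CPM with c30 and 84.1 and 80.5 CPM with ect. The mutant libraries lay well below both knockdown libraries. The log2 fold change was -0.59 with c30 (SE 0.062, edgeR adjusted p = 4.64e-12) and -0.57 with ect (SE 0.061, adjusted p = 8.71e-12), and both calls held in each of the 14 other fits. With a fold of at least 1.5 also required, ect (1.49-fold) falls just short.

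Pdk1, the kinase that shuts pyruvate out of mitochondrial oxidation, was at 91.2 and 91.7 CPM in the knockdown, 70.0 and 67.5 CPM with c30 and 68.7 and 73.1 CPM with ect. Both of its calls held in the same 14 fits, at -0.41 with c30 (SE 0.065, edgeR adjusted p = 2.52e-06) and -0.35 with ect (SE 0.064, adjusted p = 3.16e-05). Vegfa, the vessel growth factor, was at 122 and 125 CPM in the knockdown, 106 and 95.9 CPM with c30 and 93.6 and 91.0 CPM with ect. The fall was -0.29 with c30 (SE 0.059, adjusted p = 0.000389), a call that ended without c30 replicate 2, and -0.41 with ect (SE 0.059, adjusted p = 1.64e-07).

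Bnip3 and Bnip3l encode receptors that send mitochondria to autophagy. Bnip3 was at 16.7 and 14.8 CPM in the knockdown, 10.6 and 10.0 CPM with c30 and 7.99 and 9.64 CPM with ect. It had the largest fall called among the targets, -0.61 with c30 (SE 0.158, edgeR adjusted p = 0.00649) and -0.81 with ect (SE 0.158, adjusted p = 0.000118). The c30 call ended without knockdown replicate 1 and without either c30 library, while the ect call held in all 14 fits. Bnip3l was lower by a smaller step, -0.21 with c30 (adjusted p = 0.0198) and -0.29 with ect (adjusted p = 0.000421), from 109 and 104 CPM in the knockdown to 91.1 and 93.1 CPM with c30 and 84.8 and 88.5 CPM with ect. Its c30 call too ended without knockdown replicate 1 and without either c30 library.

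Among genes of chromatin and collagen, P4ha1, the catalytic subunit of collagen prolyl hydroxylase, was at 128 and 128 CPM in the knockdown, 106 and 107 CPM with c30 and 106 and 97.6 CPM with ect. It fell by 0.26 with c30 (SE 0.058, edgeR adjusted p = 0.0014) and by 0.32 with ect (SE 0.058, adjusted p = 3.73e-05) on the log2 scale, and the c30 call ended without c30 replicate 1. Kdm3a, a histone demethylase, was at 123 and 118 CPM in the knockdown, 103 and 111 CPM with c30 and 89.9 and 98.9 CPM with ect. It was called with ect (-0.34, SE 0.059, adjusted p = 2.05e-05) and missed the threshold with c30 (-0.17, SE 0.060, adjusted p = 0.0636). The related collagen prolyl hydroxylase gene P4ha2 was called with neither. Ankrd37 and Car9 had large estimates on few counts, at -1.15 and -0.997 with c30, that were not called (edgeR adjusted p = 0.129 and 0.101).

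**Figure D1:**
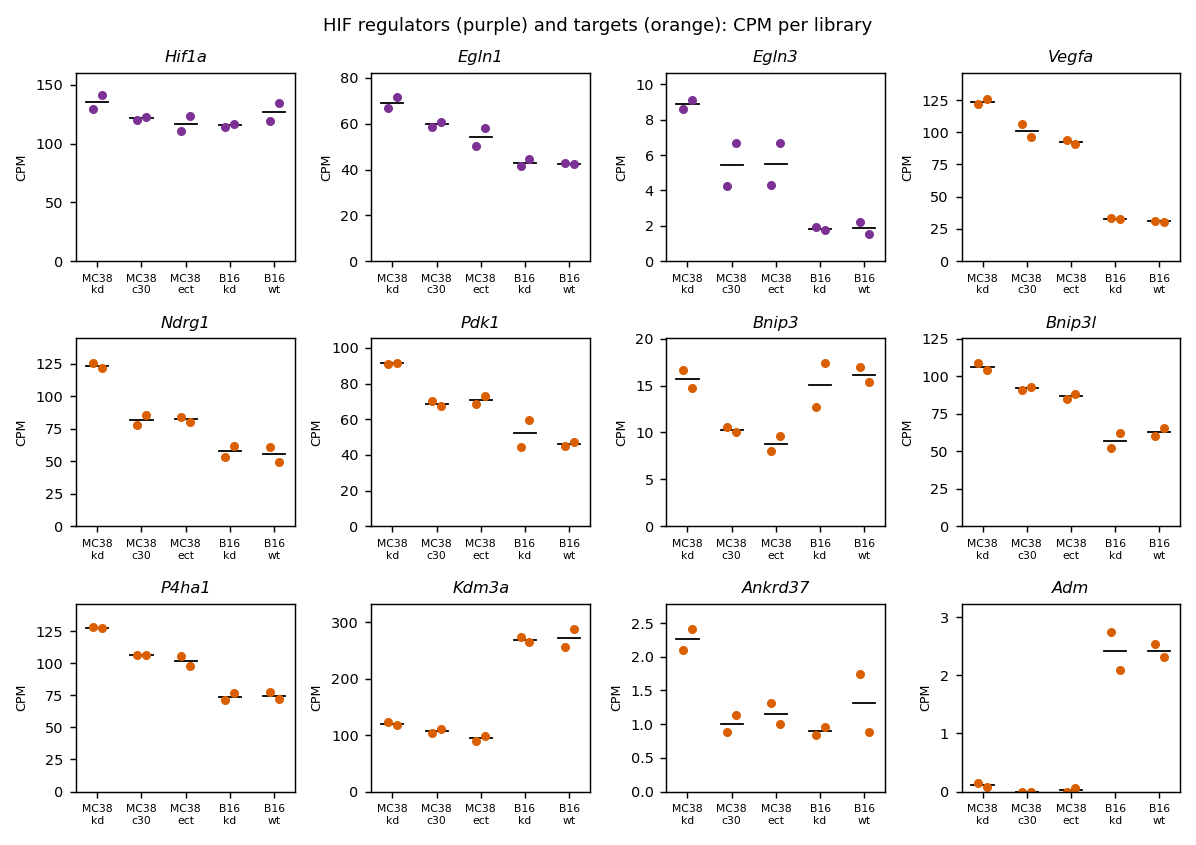
CPM (linear axis from 0) of 12 HIF regulators and targets in each library: points are the 2 libraries of a group, lines their mean, kd the knockdown and wt wild-type Sdc1. The 4 MC38 libraries labelled c30 or ect lie below both knockdown libraries for Ndrg1 (77.4 to 85.8 against 121 and 125 CPM) and Pdk1, while the B16 groups overlap for both, and Adm is near 0 in MC38.

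Transporters moved little in MC38. Slc2a1, the basal glucose transporter GLUT1 and a classical HIF target, was at 83.7 and 86.4 CPM in the knockdown, 78.2 and 76.8 CPM with c30 and 81.9 and 74.3 CPM with ect. It was called with neither mutant (-0.13, SE 0.065, edgeR adjusted p = 0.247, and -0.12, SE 0.064, adjusted p = 0.302), although its groups did not overlap. Slc16a3, the lactate exporter MCT4, was at 51.2 and 52.8 CPM in the knockdown, 47.0 and 51.4 CPM with c30 and 42.7 and 40.2 CPM with ect. It was called with ect (-0.32, SE 0.085, adjusted p = 0.00775), a call that ended without knockdown replicate 2 or ect replicate 2. Slc16a1, the lactate carrier MCT1, was called with neither, so that 0 of 3 transporters tested passed with c30 and 1 of 3 with ect.

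Glycolytic enzymes were lower in part and by small steps: 5 of 18 tested were called with c30 and 7 of 18 with ect, at medians of -0.12 and -0.11 on the log2 scale. Gpi1, Pfkl, Eno1 and Ldha were called with both, Pgk1 with c30, and Hk1, Pfkp and Tpi1 with ect. Ldha, which turns pyruvate into lactate, was at 1358 and 1283 CPM in the knockdown, 1135 and 1143 CPM with c30 and 1134 and 1172 CPM with ect. The fall was 0.21 with c30 (SE 0.038, edgeR adjusted p = 3.63e-05) and 0.18 with ect (SE 0.038, adjusted p = 0.000288) on the log2 scale. Leaving out any 1 library ended neither call.

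Gpi1 makes fructose 6-phosphate and Pgk1 carries the first step that yields ATP. Gpi1 was at 276 and 299 CPM in the knockdown, 255 and 241 CPM with c30 and 241 and 248 CPM with ect (-0.21, SE 0.048, edgeR adjusted p = 0.00204, and -0.22, SE 0.048, adjusted p = 0.000698). Its c30 call ended without knockdown replicate 2 or c30 replicate 2. Pgk1 was at 1234 and 1182 CPM in the knockdown, 1056 and 1059 CPM with c30 and 1132 and 1135 CPM with ect. It was called with c30 (-0.19, SE 0.038, adjusted p = 0.000257), a call that ended without c30 replicate 1, and was not called with ect (-0.08, SE 0.038, adjusted p = 0.203).

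Tpi1, which interconverts the triose phosphates, was at 686 and 641 CPM in the knockdown, 615 and 604 CPM with c30 and 572 and 557 CPM with ect. It was called with ect (-0.22, SE 0.042, edgeR adjusted p = 7.66e-05) and missed the threshold with c30 (-0.12, SE 0.042, adjusted p = 0.0674). Eno1, the main enolase, was at 2431 and 2495 CPM in the knockdown, 2265 and 2276 CPM with c30 and 2192 and 2254 CPM with ect, the smallest fall called with either mutant (-0.11, SE 0.035, adjusted p = 0.0275, and -0.14, SE 0.035, adjusted p = 0.00465). Its c30 call ended without knockdown replicate 2 or either c30 library, and its ect call without ect replicate 1. A near-copy, Eno1b, took at most 63.6 CPM, and adding its counts to those of Eno1 left both calls in place.

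Pfkl, a subunit of the committing enzyme phosphofructokinase, fell by 0.18 with c30 (edgeR adjusted p = 0.0298) and by 0.21 with ect (adjusted p = 0.00691) on the log2 scale. It was at 145 and 149 CPM in the knockdown, 128 and 131 CPM with c30 and 126 and 127 CPM with ect. The c30 call ended without knockdown replicate 2 or either c30 library and the ect call without ect replicate 2. Its sister subunit Pfkp was called with ect (-0.22, adjusted p = 0.0114), which ended without knockdown replicate 2 or ect replicate 2, and the muscle-type subunit Pfkm was called with neither (0.03 and 0.13). Hk1, the housekeeping hexokinase, was called with ect (-0.16, adjusted p = 0.0268), a call that ended without knockdown replicate 2, c30 replicate 2 or either ect library. Hk2, the inducible hexokinase, was at 81.7 and 87.1 CPM in the knockdown, 88.4 and 91.6 CPM with c30 and 85.5 and 86.9 CPM with ect, and was called with neither (0.10, SE 0.062, adjusted p = 0.41, and 0.04, SE 0.062, adjusted p = 0.771).

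The remaining enzymes tested in MC38, Pfkfb3, Pfkfb4, Aldoa, Aldoc, Pgam1, Eno2, Pkm and Gapdh, were called with neither mutant. Pkm, the last step to pyruvate, was at 2959 to 3029 CPM over the 6 libraries. The row of Gapdh held 223 and 27.7 CPM in the 2 knockdown libraries, 91.6 and 34.3 CPM with c30 and 258 and 235 CPM with ect. The knockdown replicates differed 8.05-fold. Gapdh has many near-identical copies in the mouse genome. The sources do not describe how reads that match several copies were treated, so its row is uncertain. The rows of the copies Gapdh-ps14 and Gapdh-ps15 held 0 CPM and 0.151 to 0.793 CPM in MC38. The cause of the gap between the replicates was not tested. Its fold changes carry an SE of 1.22 and 1.09 on the log2 scale and were not called (edgeR adjusted p = 0.762 and 0.73), although limma-voom called it higher with ect.

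**Figure D2:**
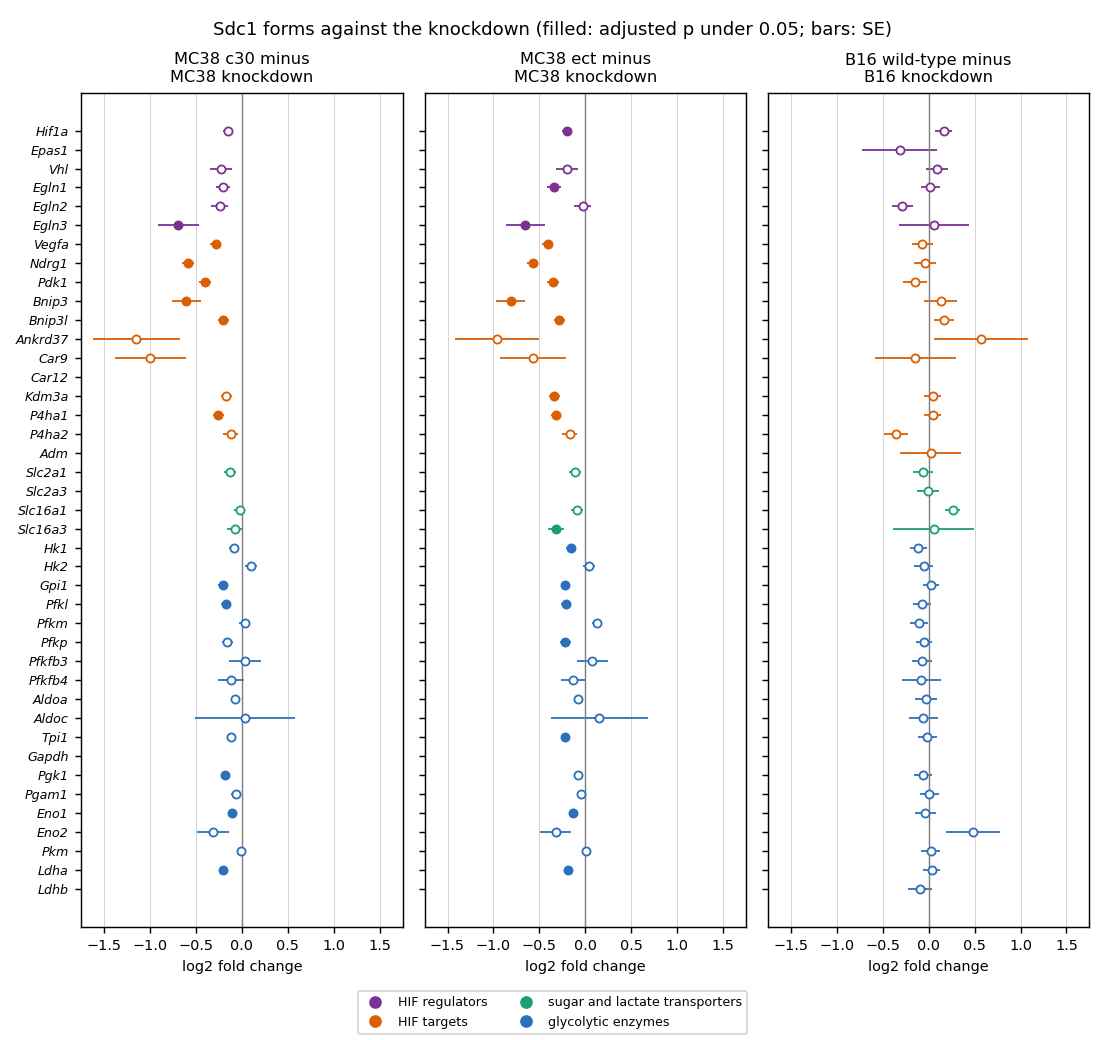
Log2 fold change (horizontal axis) of each member tested against the knockdown of the same line, with bars of 1 SE, coloured by role and filled where the edgeR adjusted p was under 0.05; Gapdh is left out, and a missing row was not tested. Filled points are 12 with c30, 18 with ect and 0 in B16, and all of them lie to the left of 0.

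Counting by overlap in place of the test gave a looser picture. With c30, 25 of 36 members had both mutant libraries below both knockdown libraries, where 24.8% of all genes did, and 1 had both above, where 23% did. With ect the counts were 25 below (background 25.9%) and 1 above (22.5%). The members below were all 10 targets with c30 and 9 of 10 with ect, and the enzymes gave 10 of 18 with each mutant.

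The c30 and ect libraries were also compared with each other. Their difference uses no knockdown value, but the spread behind the test comes from all 6 MC38 libraries. Of 36 members, 0 were called between c30 and ect by edgeR, where 0.299% of genes were (0.133% higher, 0.166% lower with c30). An unadjusted edgeR p under 0.05 was found for 6 members, without a count over all genes to set beside it. DESeq2 called 0 and limma-voom 1, which was Gapdh, lower with c30. The widest estimates apart from Gapdh were Car9 (-0.43, SE 0.409), Slc16a3 (0.24, SE 0.087, edgeR adjusted p = 0.306), Egln2 (-0.22, SE 0.094, adjusted p = 0.476) and Bnip3 (0.21, SE 0.171, adjusted p = 0.799) on the log2 scale, positive where c30 was higher. For members with more counts the estimates were smaller, as for Hif1a (0.05, SE 0.059), Ndrg1 (-0.02, SE 0.064), Pdk1 (-0.05, SE 0.067), Vegfa (0.13, SE 0.061), Slc2a1 (-0.01, SE 0.065), Hk2 (0.06, SE 0.062) and Ldha (-0.03, SE 0.038). Both c30 libraries lay below both ect libraries for 4 members (background 17.3%) and above for 12 (background 20.6%). So genes called with one mutant and not with the other, such as Pgk1 (c30 minus ect -0.11, adjusted p = 0.295), Tpi1 (0.10, adjusted p = 0.406) or Kdm3a (0.17, adjusted p = 0.313), were not shown to differ between them.

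In B16, no member was called between wild-type Sdc1 and the knockdown. By edgeR 0 of 40 members were called, against 0% of 14336 genes, and DESeq2 and limma-voom called 0 members. An unadjusted edgeR p under 0.05 was found for 3 members (Slc16a1, P4ha2 and Egln2), a limit at which all genes were not counted. Both wild-type libraries lay below both knockdown libraries for 6 members (background 21.1%) and above for 3 (background 13.9%). The common coefficient of variation between replicates was 8.68% in B16 and 4.84% in MC38, and fold changes in B16 carried wider errors. Car12 was not tested, with at most 0.687 CPM in any library.

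Among targets that fell in MC38, Ndrg1, Pdk1 and Vegfa are given here, and they were not called between the B16 groups. Ndrg1 was at 53.5 and 62.1 CPM in the B16 knockdown and 60.9 and 49.4 CPM with wild-type Sdc1 (log2 fold change -0.04, SE 0.122, edgeR adjusted p = 0.982). Pdk1 was at 44.7 and 59.9 CPM and at 45.0 and 47.4 CPM (-0.15, SE 0.133, adjusted p = 0.934). Vegfa was at 33.3 and 32.6 CPM and at 31.4 and 30.3 CPM, close together but without overlap (-0.07, SE 0.116, adjusted p = 0.969). For Ndrg1 and Pdk1 the B16 groups overlapped. The Pdk1 effect in B16 was not shown to differ from its MC38 effects. It lay above them by 0.26 for c30 and 0.21 for ect (edgeR adjusted p = 0.54 and 0.64).

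Regulators and sugar genes were not called in B16, though some groups did not overlap. Egln2 was at 53.8 and 53.0 CPM in the knockdown and 46.9 and 39.04 CPM with wild-type Sdc1, lower without overlap (-0.29, SE 0.114, edgeR adjusted p = 0.877). Slc16a1 was higher without overlap (0.26, SE 0.083, adjusted p = 0.877). Hif1a was at 114 and 117 CPM in the knockdown and 119 and 135 CPM with wild-type Sdc1, above without overlap (0.16, SE 0.092, edgeR adjusted p = 0.901). Epas1, low but present in this line, was at 1.83 and 4.09 CPM and at 2.77 and 1.84 CPM (-0.32, SE 0.411, adjusted p = 0.963). Slc2a1 was at 59.3 and 60.0 CPM and at 61.3 and 51.3 CPM (-0.06, SE 0.109, adjusted p = 0.972). The groups overlapped for both Epas1 and Slc2a1. They also overlapped for Hk2 at 135 and 134 CPM against 139 and 114 CPM (-0.06, SE 0.100), Ldha at 1273 and 1339 CPM against 1407 and 1216 CPM (0.03, SE 0.093), Ldhb at 94.4 and 110 CPM against 108 and 80.2 CPM (-0.09, SE 0.129) and Gapdh at 471 and 683 CPM against 544 and 388 CPM (-0.28, SE 0.216).

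The B16 result changed when either wild-type library was left out. Without wild-type replicate 1, 7 members were called: Hif1a (log2 fold change 0.25) and Slc16a1 (0.24) higher, and Egln2 (-0.42), Ldhb (-0.31), Aldoa (-0.25), Eno1 (-0.22) and Pgk1 (-0.17) lower, with edgeR adjusted p-values of 0.000306 to 0.0327 and 1295 genes called in all (8.59%). Without wild-type replicate 2 only Slc16a1 was called, higher by 0.28 (SE 0.069, adjusted p = 0.00597), with 326 genes called in all (2.17%). A fit with 1 wild-type library assumes that it varies like the knockdown pair. Slc16a1 was higher in both of these fits, from 129 and 126 CPM in the knockdown to 153 and 147 CPM, and the enzymes were called lower only where the replicate with low enzyme values stood alone.

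The difference between the B16 and MC38 effects was tested directly in 1 fit of all 10 libraries, and line and form of Sdc1 cannot be told apart in it. For c30, 0 of 40 members were called by edgeR (background 0.284%, with 0.148% higher and 0.136% lower). For ect 0 of 40 were called (background 0.486%, with 0.284% higher and 0.201% lower). An unadjusted edgeR p under 0.05 was found for 10 members against c30 and 14 against ect. The share of all genes under that unadjusted limit was not counted, so the 10 and 14 have no background. The nearest to the threshold were Ndrg1 (B16 effect above the c30 effect by 0.55, SE 0.132, adjusted p = 0.0763, and above the ect effect by 0.53, SE 0.131, adjusted p = 0.0637), Bnip3 against ect (0.95, SE 0.234, adjusted p = 0.0637) and Bnip3l against ect (0.45, SE 0.116, adjusted p = 0.0798). DESeq2 called Ndrg1 against c30 and Ndrg1, Bnip3l and Kdm3a against ect. Without B16 wild-type replicate 1 the counts were 5 and 8, with 6.09% and 6.5% of genes called, and without replicate 2 they were 10 and 11, with 2.07% and 2.35%, and Ndrg1 was among them each time. Without the filter on low counts edgeR called Ndrg1 against c30 (0.466% of genes called) and Ndrg1, Bnip3, Bnip3l and Kdm3a against ect (0.554%). Whether these members were called thus depended on the setting.

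The lines themselves differed far more than the groups within a line. With both knocked down, 34 of 40 members were called, 19 higher and 15 lower in B16, where 68.2% of 16877 genes were called, 33.8% higher and 34.3% lower. Among genes of at least 5 CPM in 2 libraries 32 of 36 members were called, against 74.1% of genes. Since most genes differed, the share of members called says little, but the roles split: HIF targets were mostly lower in B16 and glycolytic enzymes mostly higher. Among targets 7 of 11 were lower and 2 higher, at a median of -0.75 on the log2 scale, and among enzymes 3 of 19 were lower and 12 higher, at a median of 0.72. Over all genes the median was -0.01. Both B16 libraries lay below both MC38 libraries for 17 members (background 44.4%) and above for 20 (background 40%).

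Vegfa showed the widest gap among the abundant targets, at 122 and 125 CPM in MC38 and 33.3 and 32.6 CPM in B16, a 3.64-fold lower level (log2 fold change -1.87, SE 0.082, edgeR adjusted p = 1.85e-17). Ndrg1 was 2.08-fold lower (-1.06, SE 0.092, adjusted p = 7.59e-11) and Pdk1 1.71-fold lower (-0.77, SE 0.096, adjusted p = 5.6e-08). Bnip3l, P4ha1, P4ha2 and Ankrd37 were also lower, the last on few counts and with a call that ended under DESeq2 and without MC38 knockdown replicate 2 or B16 knockdown replicate 1. Kdm3a went the other way, at 123 and 118 CPM in MC38 and 274 and 265 CPM in B16, 2.3-fold higher (edgeR adjusted p = 2.6e-14). Adm, which encodes the vasodilator adrenomedullin, had 60 counts in the B16 knockdown and 3 in the MC38 knockdown, a ratio of 22.0 with an exact 95% interval of 7.18 to 110. Bnip3 and Car9 were not called. Intervals on such ratios cover counting error only.

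All 6 regulators were called between the lines by edgeR. Epas1 had 71 counts in the B16 knockdown and 3 in the MC38 knockdown, a ratio of 26.0 (8.56 to 129). It still made up only 1.42% to 3.55% of HIF alpha transcripts per kb of exon in B16. Hif1a was slightly lower in B16 (-0.19, SE 0.075, edgeR adjusted p = 0.0285), a call that ended under DESeq2 and without MC38 knockdown replicate 2, MC38 c30 replicate 2 or either B16 knockdown library. Egln3 was 4.70-fold lower in B16 (-2.23, SE 0.299, adjusted p = 2.07e-07) and Egln1 1.57-fold lower (-0.65, SE 0.093, adjusted p = 5.87e-07). Egln2 (0.41, SE 0.101, adjusted p = 0.000861) and Vhl (0.38, SE 0.123, adjusted p = 0.00804) were higher, and the Vhl call ended without MC38 knockdown replicate 2 or B16 knockdown replicate 1.

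**Figure D3:**
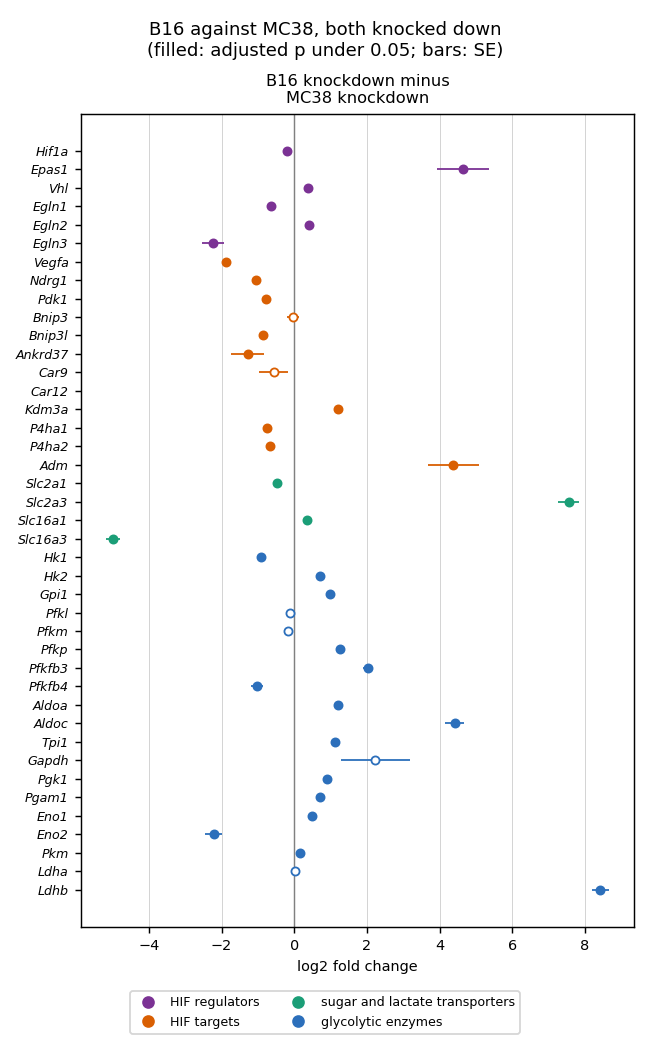
Log2 fold change (horizontal axis) of each member tested between B16 and MC38, both with the knockdown, with bars of 1 SE and filled where the edgeR adjusted p was under 0.05. Most targets lie left of 0, down to -1.87 for Vegfa, most enzymes lie right of 0, and Slc2a3 and Ldhb stand far to the right on 5 and 8 counts in MC38.

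The main glucose and lactate transporter transcripts, Slc2a1 and Slc16a1, were shared by the lines, and the minor ones differed. Slc2a3, the high-affinity glucose transporter GLUT3, was at 33.8 and 37.2 CPM in the B16 knockdown and at 0.073 and 0.301 CPM in MC38, 869 counts against 5, a ratio of 191 (81.6 to 590). Per kb of exon it was 20.6% to 25.4% of the GLUT1 and GLUT3 transcripts in B16 and at most 0.169% in MC38. Slc2a1 was lower in B16 (-0.47, SE 0.087, edgeR adjusted p = 2.81e-05). The Slc16a3 transcript went the other way from Slc2a3, at 51.2 and 52.8 CPM in MC38 and 1.15 and 2.09 CPM in B16. That was 31.6-fold lower in B16 (-4.98, SE 0.183, edgeR adjusted p = 2.4e-19). Slc16a1 was a little higher in B16 (0.35, SE 0.075, adjusted p = 0.000168). MCT4 thus made up 25.4% to 31.3% of MCT1 and MCT4 transcripts in MC38 and 0.732% to 1.36% in B16.

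Enzymes were higher in B16 along most of the pathway. Gpi1 was at 538 and 567 CPM in B16 against 276 and 299 CPM in MC38 (log2 fold change 0.98, SE 0.067, edgeR adjusted p = 3.56e-13). Pfkp (1.25, SE 0.073, adjusted p = 1.09e-14) was at 227 and 235 CPM against 96.6 and 104 CPM. Aldoc, a brain-type aldolase, was at 19.5 and 25.3 CPM against 1.09 and 1.05 CPM (4.41, SE 0.267, adjusted p = 2.33e-14). Each of these lay far outside the spread of either line. Hk2, Pfkfb3, Aldoa, Tpi1, Pgk1, Pgam1, Eno1, Pkm and Ldhb completed the 12, with the smallest step in Pkm (0.17, SE 0.067, adjusted p = 0.0274), a call that ended without any 1 of the 4 knockdown libraries or MC38 ect replicate 2. Hk1 (-0.93), Pfkfb4 (-1.02) and Eno2 (-2.22), the neuronal enolase, were lower in B16. Pfkl, Pfkm, Gapdh and Ldha were not called.

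**Figure D4:**
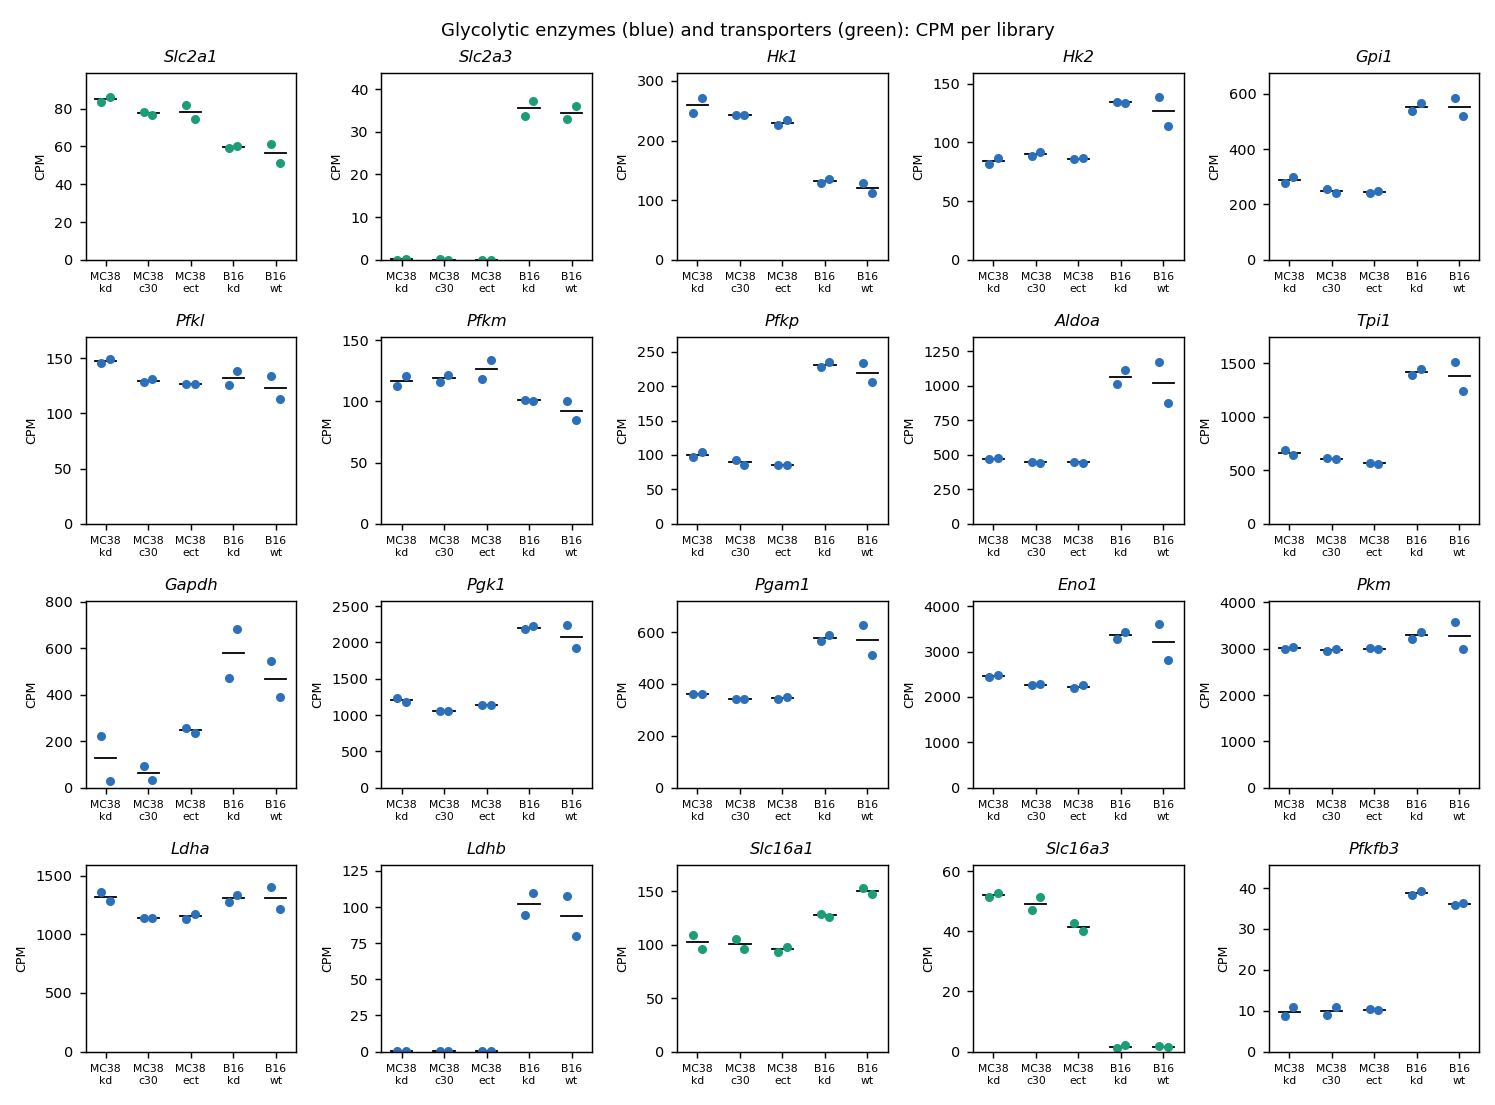
CPM (linear axis from 0) of 16 glycolytic enzymes (blue) and 4 transporters (green) in each library: points are the 2 libraries of a group, lines their mean. B16 lies above MC38 for Gpi1, Aldoa and Tpi1, Ldha is level (1273 and 1339 against 1358 and 1283 CPM in the knockdown groups), and the Gapdh row scatters within MC38.

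Isozyme shares separated the lines, with narrow ranges within each line. Ldha itself did not differ between the lines (0.02, SE 0.066, edgeR adjusted p = 0.759), but Ldhb, the heart-type subunit that favours the reverse reaction, had 2498 counts in the B16 knockdown and 8 in the MC38 knockdown, a ratio of 344 (174 to 797). Per kb of exon Ldhb was 12.2% to 14.7% of lactate dehydrogenase transcripts in the 4 B16 libraries and 0.033% to 0.096% in the 6 MC38 libraries. Hk2 made up 58.4% to 60.8% of Hk1 and Hk2 transcripts in B16 and 31.5% to 35.1% in MC38. Pfkp was 25.7% to 26.7% of phosphofructokinase transcripts in B16 and 9.70% to 11.7% in MC38, and Pfkfb3 73.6% to 78.7% of the Pfkfb3 and Pfkfb4 pair in B16 and 25.8% to 32.6% in MC38. The ranges of the lines did not overlap for any of these. Shares of collagen hydroxylase did overlap, with P4ha1 at 75.4% to 78.4% in MC38 and 76.0% to 82.1% in B16. Lengths are the union of annotated exons, which overstates genes with long minor isoforms, so the shares and the size of their differences are approximate.

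**Figure D5:**
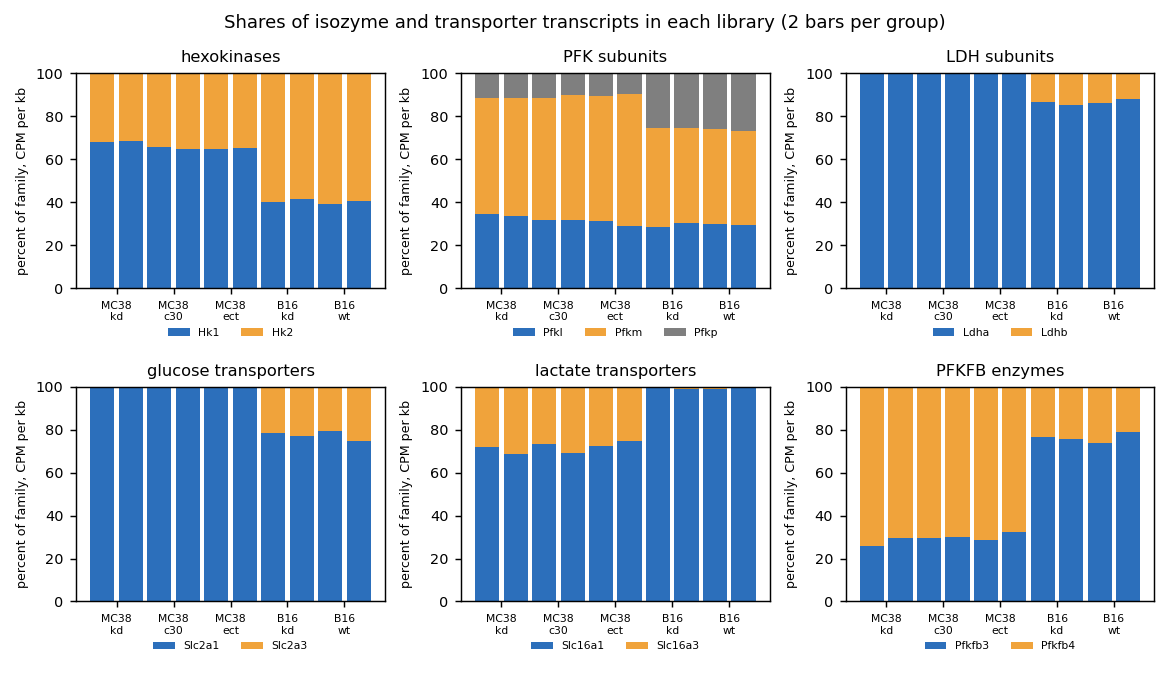
Share of each isozyme or transporter among the members shown of its family (vertical axis, percent of CPM per kb of exon), 1 bar per library and 2 per group. Bars within a line are close to level, and the lines differ, as for Hk2 at 31.5% to 35.1% in MC38 and 58.4% to 60.8% in B16.

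On the same per-length scale the abundant glycolytic enzymes stood far above the HIF targets in both lines. In the MC38 knockdown the highest were Pkm at 601 ± 6.23 CPM per kb (SD, n = 2), Pgk1 at 538 ± 16.4, Eno1 at 458 ± 8.44 and Ldha at 399 ± 15.9, and no neighbours in that order overlapped. In the B16 knockdown Pgk1 led at 983 ± 16.2 CPM per kb, followed by Pkm at 658 ± 23.5, Eno1 at 624 ± 21.5, Tpi1 at 514 ± 13.9 and Ldha at 395 ± 13.9. The Pkm libraries lay only just above those of Eno1 there. The highest HIF target was P4ha1 in MC38 at 31.0 ± 0.043 and Kdm3a in B16 at 32.8 ± 0.777.

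Other genes of the pathway were followed through 3 lists. Of 32 other HIF pathway genes tested in MC38, 6 were called lower and 2 higher with c30, and 6 lower and 3 higher with ect, at medians of -0.11 in both. Plod1, a collagen lysyl hydroxylase, fell from 176 and 183 CPM to 145 and 141 CPM with c30 (log2 change -0.33, SE 0.055, edgeR adjusted p = 7.53e-06) and to 152 and 138 CPM with ect (-0.30, SE 0.054, adjusted p = 3.98e-05). Mif, a cytokine that is also a HIF target, rose with c30 (0.24, SE 0.054, adjusted p = 0.001) and with ect (0.20, SE 0.053, adjusted p = 0.00588). Plod2, a second collagen lysyl hydroxylase, fell with ect (-0.38, SE 0.076, adjusted p = 0.000218).

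The other lists held genes around glycolysis, and the backgrounds given above for c30 and ect apply to them. Of 20 genes of pyruvate fate and the pentose phosphate route, 2 were lower and 1 higher with c30, and 1 lower with ect: G6pdx, which opens the pentose route, fell with c30 (-0.19, SE 0.059, edgeR adjusted p = 0.028) and with ect (-0.32, SE 0.059, adjusted p = 5.57e-05), and Rpe was lower (adjusted p = 0.0445) and Dlat higher (adjusted p = 0.0355) with c30. Of 15 other genes of sugar entry and glycolysis, 2 were lower with c30, and 1 was lower and 1 higher with ect. Eno3, the muscle enolase, fell from 151 and 145 CPM to 109 and 112 CPM with c30 (-0.42, SE 0.058, adjusted p = 6.06e-08) and to 111 and 102 CPM with ect (-0.47, SE 0.057, adjusted p = 1.33e-09). Galm fell with c30 (-0.46, SE 0.141, adjusted p = 0.0297), and Myc, which also drives glycolytic genes, rose with ect (0.23, SE 0.061, adjusted p = 0.00794). No gene of these lists was called between c30 and ect or in B16.

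The lists also bear on the line comparisons. Bhlhe40 and Bhlhe41, a pair of HIF-induced repressors, were called in the difference of the B16 and c30 effects (0.84, SE 0.189, edgeR adjusted p = 0.0479, and 1.02, SE 0.193, adjusted p = 0.0138). For the B16 effect against ect the calls were Plod2 (0.60, SE 0.120, adjusted p = 0.0169), Bhlhe40 (0.86, SE 0.187, adjusted p = 0.0304) and Bhlhe41. Bhlhe40 was at 17.1 and 20.4 CPM in the MC38 knockdown, 11.1 and 12.7 CPM with c30 and 12.7 and 10.8 CPM with ect, and in B16 at 34.8 and 35.1 CPM in the knockdown and 41.6 and 37.1 CPM with wild-type Sdc1. It was lower with both mutants in MC38 and above the knockdown in both B16 wild-type libraries. Between the knocked-down lines, where 33.8% of all genes were higher in B16 and 34.3% lower, 18 of 34 other HIF pathway genes were higher in B16 and 12 lower, with Ero1a, an oxidase of protein folding, at 3.07 (SE 0.078, adjusted p = 5.51e-23). This wider list thus did not share the mostly lower values of the HIF targets. Of the pyruvate and pentose genes 11 of 20 were higher and 6 lower, led by G6pdx (0.86) and Bsg (0.73), a partner of the lactate carriers. Of the other sugar genes 9 of 15 were higher and 5 lower, led by Slc2a6 (3.34) and Galm (2.43).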

How the data were processed

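RNA of 10 libraries was sequenced, and the deposited table holds raw counts (whole numbers) per gene and library. The build was GRCm39 and the authors' tools included HISAT2 2.0.5, Trimmomatic, featureCounts, HTSeq and DESeq2, per the submitters' processing notes. The order of the tools, the annotation, the strand setting and the treatment of reads with several matches are not given in the sources used here, so values of genes with near-identical copies are uncertain. Aldoa had 2 rows, and the one with more counts was used. Every column was used. A row with an identifier and no symbol, kept in the fits, held 0.621% to 2.42% of a library's counts.

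The robust quasi-likelihood test of edgeR 4.0.16 (R 4.3.3) was run 2-sided after TMM scaling and filterByExpr on the groups. P-values were Benjamini-Hochberg adjusted over every gene of a fit, and a call means an adjusted value below 0.05. MC38 comparisons came from 1 fit of 6 libraries (15031 genes), the B16 comparison from a fit of 4 (14336 genes), and those between lines from a fit of 10 (16877 genes). Fold changes come from these fits, and CPM is of the library total. With 2 libraries against 2, an exact permutation test cannot go below p = 0.333, so single values were not tested that way. The SE is the log2 fold change over the square root of its F value. Totals of 11349447 to 15041133 set the precision. The test was tried on simulated counts with 200 changed genes per comparison. A 1.2-fold change was called for 19.4% of such genes with c30, 31.3% with ect and 6% in B16. It was called for 0% and 3% in the differences of effects from c30 and ect. A 1.5-fold change was called for 53.7% in B16 and for 29.9% and 37.3% in those differences. Absence of a call there thus does not exclude small changes.

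The members and lists were chosen with earlier results of these data known. Every called member is named, with full values for up to 4 per role and comparison by smallest adjusted p, and 10 genes are given whatever the result: Hif1a, Epas1, Vegfa, Ndrg1, Pdk1, Slc2a1, Hk2, Gapdh, Ldha and Ldhb. Each pathway list gives up to 2 called genes per comparison by the same order. A gene that this rule names in the comparison of lines is not reported here. Rpe, Mif with ect, Bhlhe41 against ect and members near a threshold were named after their values were seen. Exon lengths are from GENCODE M21. Alternatives were RLE size factors, no filter, a filter of 5 CPM in 2 libraries, DESeq2 1.42.0, limma-voom (limma 3.58.1), a replicate block, leaving out each library, a fold of at least 1.5, and other sets of libraries in the fit. Figures used matplotlib 3.10.9.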

Additional observations from a re-analysis of the deposited data

How the results depend on the processing

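Counts of members called depended on the setting in MC38. For c30 the 12 became 8 with DESeq2, 5 to 13 when 1 library was left out (5 without c30 replicate 1, 6 without c30 replicate 2), 3 with all 10 libraries in 1 fit and 3 at 1.5-fold or more (Bnip3, Egln3 and Ndrg1). For ect the 18 became 13 with DESeq2, 13 to 18 when 1 library was left out, 6 with all 10 libraries and 2 at 1.5-fold or more. Between c30 and ect limma-voom gave 1 and the other settings 0. In B16 leaving out 1 library gave 0 to 7. Between the lines the 34 of 40 became 33 with DESeq2, where 63.4% of all genes were called, and 35 with limma-voom, where 68.3% were. That count also moved when 1 library was left out. The difference of the B16 and c30 effects gave 1 with no filter, 1 with DESeq2 and 0 to 10 when 1 library was left out, and that against ect gave 4, 3 and 0 to 11. No called member changed direction. Over the members that the naming rule picks in each comparison, 1562 values kept their side of the threshold, 86 lost a call and 21 gained one, and gains of other members are only in the counts above. Over all genes, the 1165 calls for c30 became 519 with DESeq2, 254 with all 10 libraries (25.2% of them higher, against 42.6%) and 464 to 1245 when 1 library was left out. The 1227 for ect became 596, 249 and 776 to 1080. The 45 between c30 and ect became 15 with DESeq2, 8 with all 10 libraries, 72 with the 4 libraries compared and 18 to 97 when 1 was left out. The 0 in B16 became 42 with no filter, 10 with DESeq2, 27 with all 10 libraries and 3 to 1295 when 1 was left out. The 48 and 82 for the differences of effects became 159 and 189 with no filter, 75 and 102 with DESeq2, and 13 and 23 with limma-voom. When 1 library was left out they ranged over 13 to 1096 and 13 to 1170. The cause of these changes was not tested. Deviations of same-numbered libraries from their group means correlated at r = -0.051 to 0.017 over genes. Whether same-numbered libraries were handled together is not in the labels. The replicate block left the member counts at 12, 18, 0, 0, 34, 0 and 0, with 1189, 1252, 55, 15, 11373, 35 and 57 genes called in all. Adm, Car12, Epas1, Ldhb and Slc2a3 had too few counts in MC38 to be tested there.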
